A study of Mus musculus with 12 samples.

Results

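The response of wild-type (WT) J774A.1 cells, a mouse macrophage line, to lipopolysaccharide (LPS) was measured by RNA-seq in 6 of the 12 libraries of a study whose other libraries are ACAT1 knockout (KO) cells under the same conditions. The 3 unstimulated WT libraries came from cells that received no treatment, and the 3 LPS libraries came from WT cells given 100 ng/ml LPS for 2 hours. All WT cells had been transfected with a Cas9 and GFP vector that carried no guide RNA, sorted for GFP and grown out as clonal populations, so the replicates are clones of a single tumour-derived line and not animals or donors. The labels number the replicates 1 to 3 in both states, and a number is called a line here because libraries with the same number deviated together, although the labels do not state that they share a line. The genes compared were those with raw counts in both the unstimulated and the LPS table, 16699 of the 18719 genes listed in either table, of which 16069 had enough counts to be tested.

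LPS, a component of the outer membrane of Gram-negative bacteria, is sensed at the macrophage surface by the receptor TLR4 together with MD-2 (encoded by Ly96) and CD14. One branch of signalling runs through the adaptor MyD88 to NF-kB and the MAP kinases and induces inflammatory cytokines and chemokines. The other runs through the adaptor TRIF (Ticam1) to the kinase TBK1 and the transcription factor IRF3 and induces interferon beta, which then acts back on the cells through its receptor to induce interferon-stimulated genes. Inhibitors of each step, such as the I-kappa-B proteins, A20 (Tnfaip3) and the SOCS proteins, are themselves induced.

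Library totals ran from 56948593 to 109325513 counts in unstimulated cells and from 97029110 to 167280149 after LPS. CPM is the count scaled to a common library size, with TMM normalization unless stated. The marker levels in this paragraph use the library's own total without TMM. All 9 macrophage markers examined were at 1 CPM or more in all 6 libraries. Their summed level was 10279 to 10704 CPM in unstimulated cells and 7841 to 8277 CPM after LPS. TMM factors were 1.05 to 1.14 in unstimulated and 0.897 to 0.914 in LPS libraries, so TMM scaling would bring these sums closer together. The T-cell receptor genes Cd3d, Cd3e, Cd3g and Trac and all 5 epithelial markers were not listed. Of the 6 T-cell markers, 1 was listed, at 1 CPM or more in all 6 libraries and at most 9.79 CPM. The 3 listed fibroblast markers summed to at most 5.98 CPM, the 3 listed neutrophil markers to 4.87 and the 2 listed dendritic cell markers to 4.89. In each of these lists 1 marker was at 1 CPM or more in all 6 libraries. The 1 listed B-cell marker was at most 0.824 CPM. In a principal components analysis, the first component held 77.6% of the variance and separated the LPS from the unstimulated libraries, and the second, with 12.1%, set unstimulated line 3 apart from unstimulated lines 1 and 2. Unstimulated lines 1 and 2 held 0.0251% and 0.0349% of their counts in 73 antisense genes that lie mostly opposite the exons of other genes, against 0.00633% in unstimulated line 3 and 0.00645% to 0.00667% after LPS, and unstimulated line 1 held 9.32% of its counts in mitochondrial genes against 2.28% to 3.46% in the other 5 libraries. The part of these differences in single results was not tested. Fits without unstimulated lines 1 and 2 are given for some of the genes whose call they change.

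Of the 16069 genes, 4391 (27.3%) were higher and 4469 (27.8%) lower after LPS at an adjusted p under 0.05, and 1639 (10.2%) were higher and 1695 (10.5%) lower by at least 2-fold. All adjusted p-values are two-sided, by edgeR (quasi-likelihood), adjusted by the Benjamini-Hochberg procedure over all genes tested. Changes are log2 fold changes of LPS over unstimulated cells. Their standard errors were derived from the test, as the absolute change divided by the square root of the F statistic. By more than 8-fold, 219 genes were higher and 176 lower, and in 136 of those 176 (77.3%) the level in unstimulated lines 1 and 2 was far above that in unstimulated line 3. The CPM of every LPS library lay outside the range of the unstimulated libraries for 4369 of the 4391 higher and 4294 of the 4469 lower genes, and for 62.7% of all genes tested. With upper-quartile normalization in place of TMM the median of all genes moved by -0.191 on the log2 scale, and 3358 genes were higher and 6300 lower, so that 34.8% rather than 49.6% of the called genes were higher. An exact permutation test of 3 against 3 libraries cannot give a p below 0.1, so single genes were judged in the fit across all genes.

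**Figure D1:**
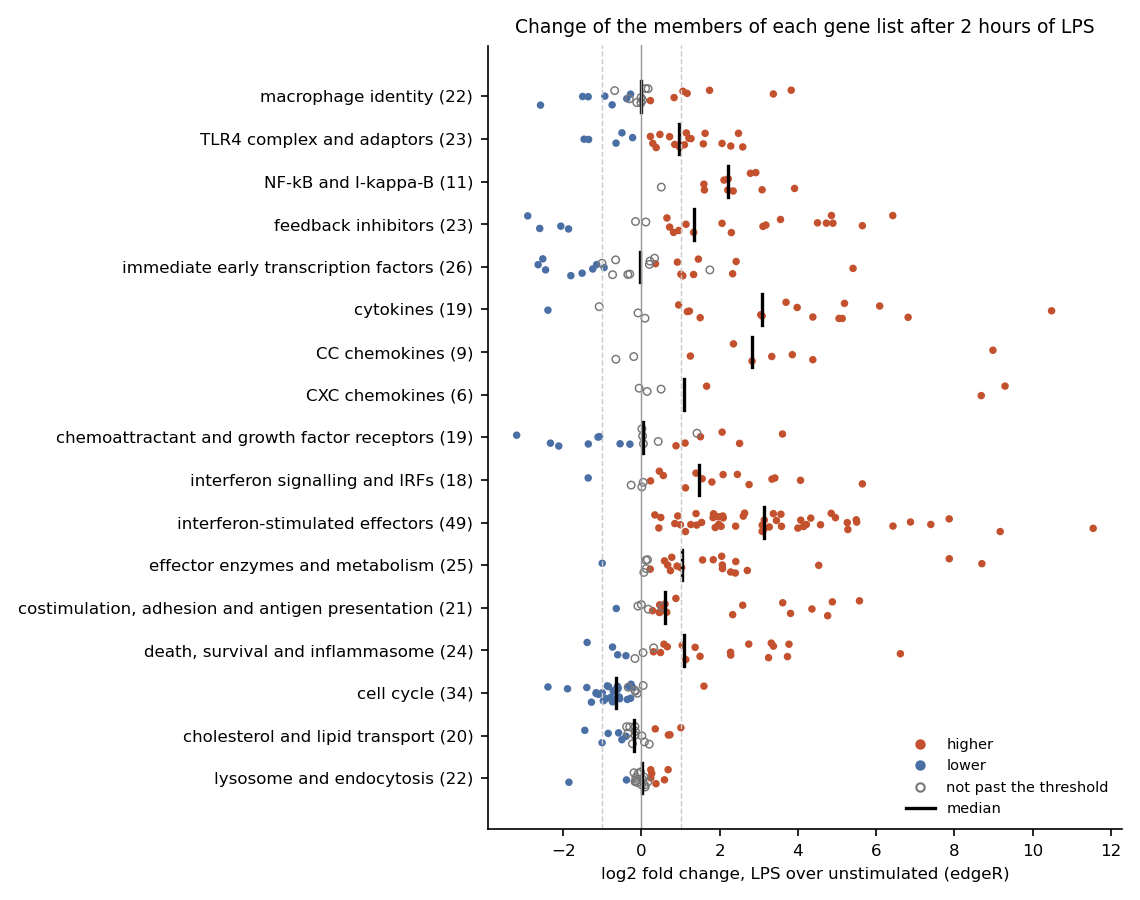
Log2 fold change (LPS over unstimulated, edgeR) of each tested member of 17 gene lists, with the number tested in brackets. Filled points passed an adjusted p of 0.05 (red higher, blue lower), open points did not, black bars are list medians and dashed lines mark 2-fold. All 49 interferon-stimulated effectors lie to the right of 0. Of 34 cell cycle genes, 28 are lower (82.4%, against 27.8% of all genes tested).

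The receptor and its adaptors changed in both directions, and every tested member of that list passed the threshold. Of the 23 genes of the TLR4 complex and its adaptors, 18 were higher and 5 lower, with a median of 0.96, against -0.04 over all genes tested. These shares were 78.3% and 21.7%, against 27.3% and 27.8% of all genes tested. Tlr4 itself (chromosome 4, 66827584 to 66930284, plus strand of GRCm38) was at 64.9, 71.1 and 59.7 CPM unstimulated and 24.3, 25.2 and 27.4 CPM after LPS (log2 fold change -1.35, standard error 0.0891, adjusted p = 1.09e-05). All LPS libraries were below all unstimulated ones. Ticam2, the adaptor that links TLR4 to TRIF, fell alongside it, from 9.64, 13.7 and 12.7 to 4.58, 4.42 and 4.11 CPM (-1.46 ± 0.149). Ticam1, which encodes TRIF, rose from 13.8, 12.1 and 10.3 to 32.8, 36.7 and 38.7 CPM (1.58 ± 0.121). Myd88 was at 46.1, 49 and 46 CPM unstimulated and 258, 271 and 258 CPM after LPS (log2 fold change 2.48, standard error 0.0677, adjusted p = 2.36e-07), and the single lines changed by 2.48, 2.46 and 2.49. Ikbke, a kinase of the interferon branch, rose by 2.59 and Tbk1 by 1.10. Irak3, a kinase-like inhibitor of MyD88 signalling, rose from 15.5, 17.1 and 17.1 to 79.2, 64.6 and 63.9 CPM (2.06 ± 0.105), whereas the kinase Irak4 was lower, at -0.65. Among the co-receptors, Ly96 rose by 1.15 and Cd14 by 0.23 (adjusted p = 0.0348), a call lost when unstimulated line 2 or 3 or LPS line 2 or 3 was left out (adjusted p from 0.0665 to 0.0859), without unstimulated lines 1 and 2 (adjusted p = 0.0758) and with upper-quartile normalization (0.04, adjusted p = 0.695).

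NF-kB subunits and their inhibitors moved together. Of 11 members, 10 were higher by at least 2-fold (90.9%, against 10.2% of all genes tested), with a median of 2.22. Nfkbia, which encodes the inhibitor I-kappa-B alpha and is a standard target of NF-kB, was at 125, 105 and 119 CPM unstimulated and 1043, 948 and 974 CPM after LPS (log2 fold change 3.08, standard error 0.093, adjusted p = 3.29e-07). Nfkbie, which encodes the inhibitor I-kappa-B epsilon, went from 28, 26.3 and 25.2 to 370.3, 419 and 407 CPM (3.91 ± 0.0863). In both genes the LPS libraries lay above the unstimulated ones in every line. Among the DNA-binding subunits, Nfkb1 rose by 2.22, Rel by 2.35 and Rela by 1.6. Nfkbid was the member that missed the threshold, at 58.9, 31 and 42 CPM unstimulated and 61.8, 61.4 and 64.3 CPM after LPS (adjusted p = 0.0604), and it passed with the line as a block (adjusted p = 0.0175) and without unstimulated line 1 (adjusted p = 0.0028). Without unstimulated lines 1 and 2, the log2 fold change of Nfkbid was 0.579.

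Most feedback inhibitors rose, and a few fell by at least 2-fold. Of 23 members, 17 were higher (73.9%, against 27.3% of all genes tested) and 4 lower (17.4%, against 27.8%). By at least 2-fold, 13 were higher (56.5%, against 10.2%) and the same 4 lower (17.4%, against 10.5%). Cish, a SOCS-family inhibitor of cytokine receptors, was at 0.52, 0.772 and 0.805 CPM unstimulated and 41.6, 69.5 and 71.8 CPM after LPS (log2 fold change 6.42, standard error 0.281, adjusted p = 1.6e-06). Socs1 rose from 1.35, 0.942 and 0.984 to 41.9, 62.7 and 58.7 CPM (5.65 ± 0.213) and Socs3 from 40.4, 15 and 20.2 to 527, 550.0 and 631 CPM (4.50 ± 0.359). Tnfaip3, which encodes the deubiquitinating enzyme A20, was at 21.1, 7.31 and 6.08 CPM unstimulated and 301, 358 and 334 CPM after LPS, so unstimulated line 1 stood above the other unstimulated lines while the LPS libraries lay together (log2 fold change 4.86, standard error 0.475, adjusted p = 7.77e-05). Peli1, a ubiquitin ligase, and Zc3h12c, a relative of the mRNA-degrading enzyme Regnase-1 (Zc3h12a), were among the 5 rises with the smallest p, at 4.89 ± 0.102 and 4.73 ± 0.0939. The falls were those of the MAP kinase phosphatases Dusp1 and Dusp6 and of the mRNA-decay factors Zfp36l1 and Zfp36l2, of which Zfp36l1 has a fraction of 0.56 of its exon bases opposite exons on the other strand. Dusp1 was at 723, 349 and 395 CPM unstimulated and 99.8, 43.3 and 52.9 CPM after LPS (log2 fold change -2.90, standard error 0.386, adjusted p = 0.000399), line 1 being highest in both states. Zfp36l2 went from 285, 279 and 284 to 66.9, 68 and 68.5 CPM (-2.06 ± 0.0617) and was among the 5 falls with the smallest p.

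Cytokine transcripts rose, several from near the detection limit. Of 19 tested cytokine genes, 14 were higher by at least 2-fold (73.7%, against 10.2% of all genes tested). The median was 3.08, and 1 gene was lower (5.26%, against 27.8% of all genes tested). Tnf (chromosome 17, 35199381 to 35202007, minus strand) was at 69.7, 40.9 and 59.1 CPM unstimulated and 1609.6, 1987 and 2028 CPM after LPS (log2 fold change 5.05, standard error 0.219, adjusted p = 1.55e-06). Il1a, the largest rise after that of Gbp5 among genes averaging 1 CPM or more, was at 0.155, 0.201 and 0.0895 CPM unstimulated and 124, 249 and 219 CPM after LPS (log2 fold change 10.48, standard error 0.408, adjusted p = 9.33e-07), and its unstimulated values rest on 11, 13 and 11 counts. Il1b rose from 2.74, 3.43 and 3.31 to 139, 266 and 242 CPM (6.09 ± 0.277) and Il6 from 0.492, 0.911 and 0.789 to 55.2, 92.4 and 101 CPM (6.82 ± 0.313). In Il1a, Il1b and Il6 the LPS library of line 1 was lower than those of lines 2 and 3 but far above every unstimulated library. Csf1, the macrophage growth factor, rose from 64.8, 52.2 and 38.9 to 1086, 1121 and 1041 CPM (4.38 ± 0.187), and Il15, a growth factor of lymphocytes, by 3.98. Osm, which encodes oncostatin M, was the only cytokine gene called lower, at 80.7, 64.8 and 61.6 CPM unstimulated and 15.2, 11.3 and 13.1 CPM after LPS (log2 fold change -2.39, standard error 0.144, adjusted p = 7.33e-06). Il10, the anti-inflammatory cytokine, was at 3.08, 0.618 and 1.15 CPM unstimulated and 0.782, 0.738 and 0.772 CPM after LPS and did not pass the threshold (adjusted p = 0.107, and 0.0206 without unstimulated line 2).

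Among chemokines, the CC family rose as a group and the CXC family in part. Of 9 CC chemokines tested, 7 were higher by at least 2-fold (77.8%, against 10.2% of all genes tested) and none was lower. Ccl24, an eotaxin, was at 3.14, 2.72 and 4.73 CPM unstimulated and 2.13, 1.81 and 2.81 CPM after LPS and missed the threshold (adjusted p = 0.0605), but was called lower by DESeq2 (adjusted p = 0.0292), with the line as a block (adjusted p = 0.00549) and without unstimulated lines 1 and 2 (adjusted p = 0.016). Ccl5, a chemokine for T cells and monocytes, was at 1.35, 1.56 and 1.14 CPM unstimulated and 558, 715 and 747 CPM after LPS (log2 fold change 8.98, standard error 0.19, adjusted p = 1.54e-07), one of the 10 largest rises. Ccl3 and Ccl4, neighbouring genes that encode macrophage inflammatory proteins, rose by 3.86 ± 0.27 and 4.38 ± 0.25, and Ccl2, which attracts monocytes, rose by 2.83 ± 0.212 from a level of 182, 110.4 and 165 CPM. Of 6 CXC chemokines, 3 were higher by at least 2-fold (50%, against 10.2% of all genes tested). Cxcl10 and Cxcl11, interferon-induced ligands of CXCR3, were at 6.58, 9.07 and 7.67 and 0.295, 0.201 and 0.138 CPM in unstimulated cells. After LPS they were at 2455, 3455 and 3675 and 90.4, 149 and 138 CPM, with log2 fold changes of 8.68 ± 0.233 and 9.29 ± 0.313. The unstimulated values of Cxcl11 rest on 21, 13 and 17 counts, and a fraction of 0.42 of its exon bases lies opposite exons on the other strand. Cxcl2, a neutrophil chemokine, was already abundant, at 563, 232 and 332 CPM unstimulated and 641, 420.4 and 534 CPM after LPS, and unstimulated line 1 lay within the LPS range (adjusted p = 0.192, and 0.00579 with the line as a block and 0.0108 without unstimulated line 1). Without unstimulated lines 1 and 2, the log2 fold change of Cxcl2 was 0.684. Per kilobase of exon, the mean level after LPS was 2209.7 CPM for Ccl3, 2579.6 for Ccl4, 1419 for Cxcl10, 1144 for Tnf and 701 for Ccl5.

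Several of the classical targets of LPS were counted after LPS but are not in the unstimulated table, so no fold change can be given for them. A gene is listed in a table only with at least 4 counts in at least 5 of its 6 libraries, KO libraries included. The LPS table alone holds 1175 genes, 564 of them protein-coding, most of them barely above that limit, with a median of 0.0795 CPM, and 61 reached a mean of 1 CPM. Ifnb1, which encodes interferon beta, was at 21.6, 33.5 and 49.7 CPM in the LPS libraries of lines 1 to 3, lowest in line 1. Ccl22 was at 24.1, 35.1 and 38.5 CPM, Csf2 (the growth factor GM-CSF) at 5.27, 9.74 and 9.57 CPM and Cxcl9 at 4.06, 11.5 and 11.4 CPM. Il12b, the p40 subunit of interleukin-12, was at 3.96, 4.41 and 3.98 CPM. The highest of these genes was the antisense transcript Gm16685, at 28.2, 52.2 and 48.3 CPM, and the adhesion molecule Vcam1 and the nuclear receptor Nr4a3 were also among the first 10. The unstimulated table alone holds 845 genes, and the 5 highest of these were counted mainly in unstimulated lines 1 and 2, such as Slc26a10 at 8.41, 13.2 and 0.119 CPM.

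**Figure D2:**
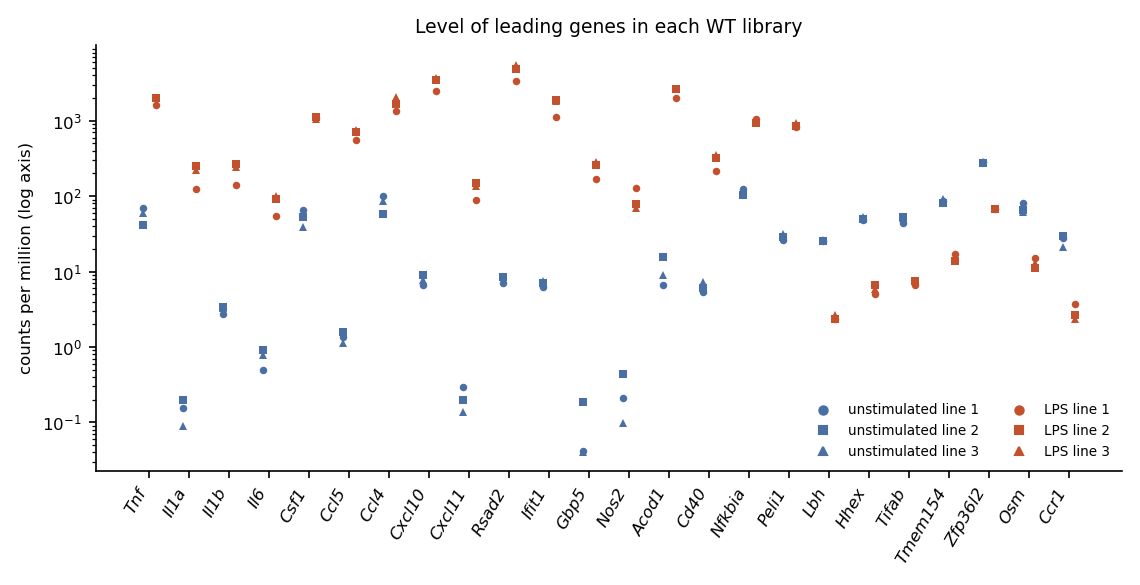
CPM (log axis) of 24 genes in each of the 6 WT libraries, blue unstimulated and red LPS, with a marker shape for each line. Il1a lies at 0.201 CPM or less in all unstimulated libraries and at 124 CPM or more in all LPS libraries. The falls of Lbh, Hhex and Zfp36l2, genes chosen by smallest p, are nearly the same in the 3 lines.

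Interferon-stimulated effectors rose in every member tested. All 49 members were tested and all 49 were higher (100%, against 27.3% of all genes tested), with a median of 3.13. By at least 2-fold, 43 were higher (87.8%, against 10.2%). In 48 of the 49 the LPS libraries lay entirely above the unstimulated ones. This is common to genes called higher, since the libraries of the 2 states did not overlap in 99.5% of them, and in 62.7% of all genes tested. Gbp5 (chromosome 3, 142493978 to 142522344, plus strand), a guanylate-binding protein of cell-autonomous defence, had the largest rise among genes averaging 1 CPM or more, at 0.0422, 0.185 and 0.0407 CPM unstimulated and 168, 262 and 280.1 CPM after LPS (log2 fold change 11.54, standard error 0.402, adjusted p = 5.74e-07). Its unstimulated values rest on 3, 12 and 5 counts, and the standard error of the fold change is correspondingly wide. Rsad2, which encodes the antiviral enzyme viperin, was at 6.96, 8.57 and 8.41 CPM unstimulated and 3374, 4898 and 5519.8 CPM after LPS (log2 fold change 9.17, standard error 0.248, adjusted p = 2.34e-07). It went from 0.000733% to 0.000975% of a library's counts to 0.302% to 0.504%, the largest gain in share of all genes. Cmpk2, its neighbour on chromosome 12, rose by 6.88 ± 0.223. Ifit1, an RNA-binding antiviral protein, was at 6.32, 7.08 and 7.47 CPM unstimulated and 1134, 1908 and 1829 CPM after LPS (log2 fold change 7.87, standard error 0.249, adjusted p = 3.88e-07). Isg15, a ubiquitin-like modifier, rose from 8.88, 11.7 and 10.9 to 247, 361 and 372 CPM (4.96 ± 0.197), the RNA sensor Ifih1 by 4.07 ± 0.191 and the GTPase Irgm1 by 4.0 ± 0.138. The smallest rises were those of the immunoproteasome subunits, Psmb9 at 0.34 and Psmb8 at 0.45, and of the membrane protein Bst2 at 0.50. Without unstimulated lines 1 and 2, 45 of the 49 passed the threshold, and Psmb8, Psmb9, Bst2 and Zbp1 did not (adjusted p from 0.05 for Bst2 to 0.278 for Psmb9). Psmb9 also lost its call without unstimulated line 1 or 2 or LPS line 2 or 3 (adjusted p from 0.0666 to 0.0758), and with upper-quartile normalization Psmb8 and Psmb9 missed it (adjusted p = 0.0638 and 0.236).

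The signalling genes upstream of these effectors rose with smaller changes. Of 18 interferon signalling genes and interferon regulatory factors, 14 were higher and 1 lower, with a median of 1.47. These shares were 77.8% and 5.56%, against 27.3% and 27.8% of all genes tested. Stat2, a subunit of the interferon-activated factor ISGF3, was at 35.3, 56.6 and 46 CPM unstimulated and 253, 342 and 334 CPM after LPS (log2 fold change 2.75, standard error 0.191, adjusted p = 1.36e-05). Irf1 went from 29.2, 38.7 and 45.7 to 500.5, 675 and 728 CPM (4.07 ± 0.209) and Irf7, which amplifies interferon production, from 38.5, 65 and 57.2 to 230.0, 312 and 338 CPM (2.45 ± 0.217). Irf8, a lineage factor of macrophages, was the member called lower, at 163, 156 and 161 CPM unstimulated and 54.3, 66 and 66.9 CPM after LPS (log2 fold change -1.36, standard error 0.0917, adjusted p = 1.2e-05). Irf3 was at 32, 30.6 and 41 CPM unstimulated and 28.9, 28.2 and 29.4 CPM after LPS and did not pass the threshold (adjusted p = 0.0858, 0.0446 with the line as a block, and 0.00839 with upper-quartile normalization). Without unstimulated lines 1 and 2, the log2 fold change of Irf3 was -0.505. Usp18, which restrains the interferon receptor, rose by 3.34 ± 0.215 and Jak2 by 3.41 ± 0.0972, while the receptor gene Ifnar1 changed by 0.23 (adjusted p = 0.0152, 0.0633 without unstimulated lines 1 and 2, and 0.598 with upper-quartile normalization, where the change was 0.04).

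The promoters of 4 of these genes are shown because they carry, in different numbers, the sequence motifs of the NF-kB and the interferon branch. They are RefSeq promoters on GRCm38.p6, from 250 bases before to 50 bases after the annotated start, read 5′ to 3′ on the gene's strand. Capitals mark matches to the letters GGNNNTTCC (NF-kB) or GAAANNGAA (ISRE, the interferon-stimulated response element) on either strand.
Nfkbia (chr12:55492598-55492897, minus strand): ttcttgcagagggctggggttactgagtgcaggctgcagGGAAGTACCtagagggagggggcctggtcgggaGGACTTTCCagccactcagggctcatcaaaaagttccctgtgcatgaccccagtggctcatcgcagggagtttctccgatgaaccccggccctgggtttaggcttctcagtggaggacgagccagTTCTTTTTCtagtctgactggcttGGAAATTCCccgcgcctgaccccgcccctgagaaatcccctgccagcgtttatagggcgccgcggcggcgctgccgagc
Cxcl10 (chr5:92348840-92349139, minus strand): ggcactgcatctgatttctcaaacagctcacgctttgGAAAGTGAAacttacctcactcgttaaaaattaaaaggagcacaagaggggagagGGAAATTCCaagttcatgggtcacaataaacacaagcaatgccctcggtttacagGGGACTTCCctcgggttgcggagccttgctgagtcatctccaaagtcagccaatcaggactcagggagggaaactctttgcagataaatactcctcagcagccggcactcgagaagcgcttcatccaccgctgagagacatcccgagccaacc
Ifit1 (chr19:34640639-34640938, plus strand): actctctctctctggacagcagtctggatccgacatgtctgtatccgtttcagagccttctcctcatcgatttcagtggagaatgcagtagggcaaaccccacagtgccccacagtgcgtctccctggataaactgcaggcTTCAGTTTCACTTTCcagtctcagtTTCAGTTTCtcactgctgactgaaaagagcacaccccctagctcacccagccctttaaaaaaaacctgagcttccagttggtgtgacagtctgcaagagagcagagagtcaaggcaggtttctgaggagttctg
Rsad2 (chr12:26456403-26456702, minus strand): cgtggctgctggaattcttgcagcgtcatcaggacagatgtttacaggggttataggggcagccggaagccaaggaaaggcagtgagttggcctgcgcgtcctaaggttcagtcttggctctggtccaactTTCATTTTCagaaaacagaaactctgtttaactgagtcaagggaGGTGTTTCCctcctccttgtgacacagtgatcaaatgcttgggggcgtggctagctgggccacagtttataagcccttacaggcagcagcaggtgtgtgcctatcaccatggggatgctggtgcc
The Nfkbia promoter has 3 matches to the NF-kB letters, beginning 211, 178 and 29 bases before the start, and 1 to the ISRE letters. The Cxcl10 promoter has an ISRE match 213 bases and NF-kB matches 158 and 103 bases before the start. The Ifit1 promoter has 3 ISRE matches, 109, 103 and 84 bases before the start, of which the first 2 overlap, and no NF-kB match. The Rsad2 promoter has an ISRE match at 119 and an NF-kB match at 75 bases.

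Across genes, the ISRE letters were more frequent the larger the rise. Of the 12089 protein-coding genes tested, 9621 had a promoter in the RefSeq table, and 8.94% of these held the ISRE letters in at least 1 promoter. The share was 13.8% of genes higher by at least 2-fold, 22.4% of those past 4-fold and 29.3% of those past 8-fold (44 of 150), and 7.38% of genes lower by at least 2-fold. Among the interferon-stimulated effectors, 24 of 40 genes with a promoter (60%) held them. The AP-1 letters TGANTCA stood in 6.4% of genes and in 15.3% of those higher past 8-fold. The NF-kB letters showed a smaller difference, 25.4% of all genes and 31.3% of those past 8-fold, though 6 of 8 NF-kB and I-kappa-B genes held them. Over all 32544 RefSeq promoters in the table, 18.5% held the NF-kB, 8.53% the ISRE and 7.79% the AP-1 letters. These shares are a description of letters in windows of 300 bases, genes with several starts have more windows, and a match is not evidence of binding.

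**Figure D3:**
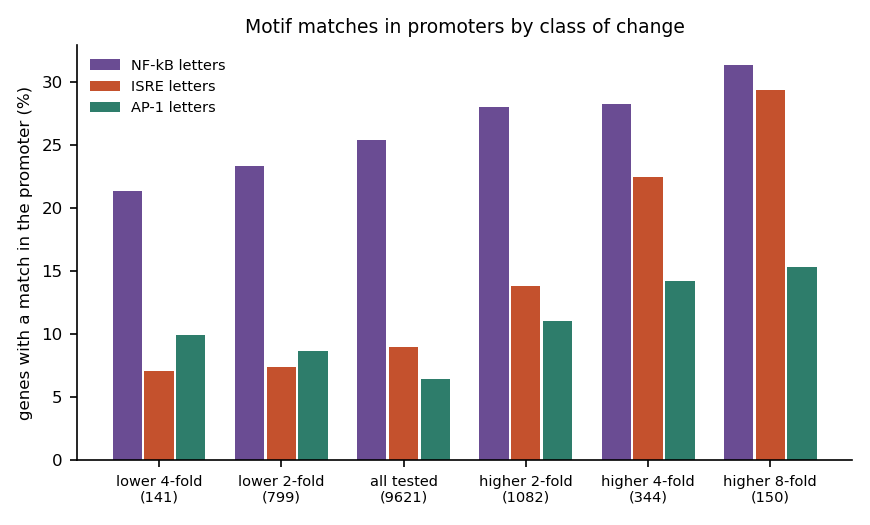
Share of protein-coding genes (%) with a match to the NF-kB, ISRE or AP-1 letters in a RefSeq promoter, by class of change after LPS, with the number of genes with a promoter in brackets. The ISRE share goes from 8.94% of all genes tested to 29.3% of genes higher by at least 8-fold, while the NF-kB share goes from 25.4% to 31.3%.

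The lines differed in level in several groups of genes. In 48 of the 49 interferon-stimulated effectors the LPS library of line 1 was the lowest of the LPS libraries (98%), against 37% of all genes tested, 65.8% of the 219 genes higher past 8-fold and 34.8% of the TLR4 complex and adaptors. Oasl1 was at 5.64, 22 and 15.3 CPM unstimulated and 268, 769.5 and 608 CPM after LPS. Mx1, an antiviral GTPase, was at 3.74, 5.79 and 7.12 CPM unstimulated and 148, 271 and 336 CPM after LPS. Irf7 and Ifnb1 were also lowest in line 1. Unstimulated line 1 was the lowest unstimulated library in 39 of the 49 (79.6%), against 36.1% of all genes tested. In cell cycle genes line 1 was also lowest in 30 of 34 before (88.2%) and in 26 of 34 after LPS (76.5%). The change within a line was close for Oasl1, 5.55, 5.13 and 5.30 in lines 1 to 3 on the log2 scale after 0.1 CPM was added. Members of a list share their libraries, so these counts describe the 3 lines and are not independent observations.

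Immediate early transcription factors, which many stimuli induce within minutes, had shares of called genes near those of all genes tested. Of 26 tested, 9 were higher (34.6%, against 27.3% of all genes) and 8 lower (30.8%, against 27.8%), with a median of -0.05, which was 0.25 without unstimulated line 1 and -0.67 among genes with no exon base on the other strand. With the line as a block 10 were higher and 13 lower. Line 1 was the highest line in both states in 15 of the 26 (57.7%), against 14.3% of all genes tested. Fos, a subunit of AP-1, was at 726, 313 and 342 CPM unstimulated and 209.7, 19.5 and 24.5 CPM after LPS (log2 fold change -2.45, standard error 0.889, adjusted p = 0.0465), lower within each line. Its call was lost when any single library other than LPS line 1 was left out (adjusted p from 0.0561 to 0.127), without unstimulated lines 1 and 2 (adjusted p = 0.191), by DESeq2 (adjusted p = 0.0566), with no filter on low counts (adjusted p = 0.0504) and with robust dispersion (adjusted p = 0.152). Fosb was at 209, 78.9 and 78.2 CPM unstimulated and 173, 24.5 and 34.6 CPM after LPS and missed the threshold (adjusted p = 0.481), but passed with the line as a block (adjusted p = 0.00703) and without LPS line 1 (adjusted p = 0.0122). Egr1 was at 37.7, 21.2 and 17.6 CPM unstimulated and 208, 21.8 and 28.1 CPM after LPS, with changes of 2.46, 0.04 and 0.67 in lines 1 to 3 (adjusted p = 0.104, and 0.0426 without LPS line 2). Klf2, a factor that restrains macrophage activation, fell from 170.1, 105 and 104 to 28.8, 16.6 and 15.6 CPM (-2.64 ± 0.289), and its relative Klf4 from 83.4, 50.8 and 43.3 to 27.7, 11.7 and 11.7 CPM (-1.80 ± 0.384). The rises were led by Fosl1, another AP-1 subunit, at 0.0703, 0.124 and 0.0488 CPM unstimulated and 3.99, 3.12 and 2.77 CPM after LPS (log2 fold change 5.41, standard error 0.34, adjusted p = 8.7e-06). A fraction of 0.57 of its exon bases lies opposite exons on the other strand, so its counts are uncertain. Maff, a small MAF protein, rose by 2.42 ± 0.357, and Junb by 1.33 ± 0.275 with unstimulated line 1 again above lines 2 and 3, at 440.4, 210.4 and 208 CPM.

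**Figure D4:**
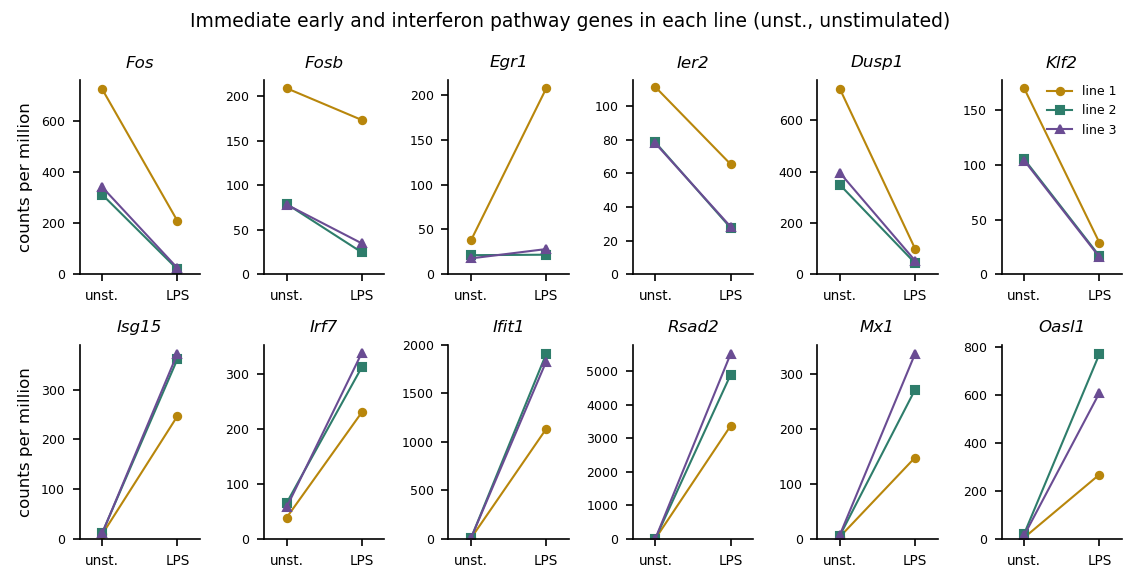
CPM in unstimulated cells and after LPS for 12 genes, a line joining the libraries of the same number. In the upper row (immediate early genes, Dusp1 and Klf2) line 1 is highest in both states, and in the lower row (interferon pathway) line 1 is lowest after LPS.

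Most genes for effector enzymes and metabolism rose. Of 25 tested, 20 were higher (80%, against 27.3% of all genes tested), 14 of them by at least 2-fold (56%, against 10.2%). Nos2, the inducible nitric oxide synthase, was at 0.211, 0.433 and 0.0976 CPM unstimulated and 128, 78 and 69.5 CPM after LPS (log2 fold change 8.70, standard error 0.444, adjusted p = 3.23e-06), and here line 1 was the highest LPS library. Acod1, which makes itaconate, was at 6.67, 15.5 and 9.03 CPM unstimulated and 2034, 2610.1 and 2606 CPM after LPS (log2 fold change 7.87, standard error 0.356, adjusted p = 1.95e-06). Ptgs2 (cyclooxygenase-2) rose from 165, 78.1 and 53 to 341, 679 and 557 CPM (2.41 ± 0.428), the arginine transporter Slc7a2 by 4.53 ± 0.188 and the mitochondrial superoxide dismutase Sod2 by 2.71 ± 0.0854. Hmox1, the heme-degrading enzyme, was at 79.2, 85.8 and 86.1 CPM unstimulated and 641, 179 and 236 CPM after LPS, with changes of 3.02, 1.06 and 1.46 in lines 1 to 3 (log2 fold change 2.07, standard error 0.432, adjusted p = 0.00417), and it missed the threshold without unstimulated lines 1 and 2 (adjusted p = 0.0608). The autophagy receptor Sqstm1, an abundant transcript, rose from 672, 640.1 and 770.5 to 3931, 2753 and 3439 CPM (2.28 ± 0.141). In glycolysis, the hexokinase Hk2 rose by 0.74 ± 0.0866, the regulator Pfkfb3 by 1.56 ± 0.193 and the glucose transporter Slc2a1 by 0.67 ± 0.147. Tnn, an extracellular matrix protein, was not on a list but among the 10 largest rises, at 9.74 ± 0.469.

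Surface molecules for contact with T cells and matrix rose as well. Of 21 genes for costimulation, adhesion and antigen presentation, 16 were higher (76.2%, against 27.3% of all genes tested) and 1 lower. With the line as a block 18 were higher. Cd40 was at 5.29, 6.03 and 7.35 CPM unstimulated and 218, 326 and 349 CPM after LPS (log2 fold change 5.57, standard error 0.226, adjusted p = 1.12e-06). Icam1 rose from 42.3, 45 and 62.7 to 1179.9, 1413 and 1476 CPM (4.76 ± 0.183), the inhibitory ligand Cd274 (PD-L1) by 4.36 ± 0.227 and the integrin subunit Itga5 by 3.61 ± 0.103. The class I molecules changed by less than 2-fold, H2-K1 by 0.46 and B2m by 0.47, a call lost for B2m without unstimulated lines 1 and 2 (adjusted p = 0.126) and with upper-quartile normalization (adjusted p = 0.0521). Cd86 rose by 0.88 ± 0.126, and Cd80 missed the threshold at 0.53 (adjusted p = 0.0544) but passed by DESeq2 (adjusted p = 0.0119), by limma-voom (adjusted p = 0.0423) and with the line as a block (adjusted p = 0.000858). Without unstimulated lines 1 and 2, the log2 fold change of Cd80 was 0.8. Icosl, the ligand of the T-cell receptor ICOS, was not on the list but was among the 5 rises with the smallest p, at 33.8, 34.8 and 36.2 CPM unstimulated and 354, 352 and 342 CPM after LPS (log2 fold change 3.32, standard error 0.069, adjusted p = 1.54e-07).

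Among genes of cell death, both inhibitors and promoters of apoptosis rose. Of 24 tested, 17 were higher (70.8%, against 27.3% of all genes tested) and 4 lower (16.7%, against 27.8%). With the line as a block 18 were higher. The caspase-8 inhibitor Cflar was at 80.4, 84.8 and 71.5 CPM unstimulated and 1059.8, 1129 and 1043 CPM after LPS (log2 fold change 3.77, standard error 0.0924, adjusted p = 1.97e-07), and the stress gene Gadd45b rose by 6.62 ± 0.15. The pro-apoptotic Bcl2l11 (BIM) rose by 3.32 ± 0.101 and the death receptor Fas by 3.73 ± 0.103. Bcl2, the anti-apoptotic founder of the family, fell from 42.1, 44.8 and 46.3 to 14.7, 17.6 and 18.6 CPM (-1.39 ± 0.102). In the inflammasome, Nlrp3 rose by 2.28 ± 0.134 and the LPS-sensing caspase Casp4 by 2.74 ± 0.0674, and Casp1 by 1.04 ± 0.108. Ripk2, the kinase of the NOD receptors, had one of the 5 smallest p among the rises, at 16.1, 16.4 and 15.4 CPM unstimulated and 151, 153 and 151 CPM after LPS (log2 fold change 3.25, standard error 0.068, adjusted p = 1.54e-07).

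Of 22 macrophage identity genes tested, 7 were higher and 7 lower (31.8% each), near the 27.3% and 27.8% of all genes tested, with a median of -0.01. With the line as a block 9 were lower. Maf, a transcription factor of resident macrophages, was at 102, 118 and 158 CPM unstimulated and 38.2, 42.8 and 52.6 CPM after LPS (log2 fold change -1.50, standard error 0.178, adjusted p = 0.000217). The lineage factor Spi1 (PU.1) rose by 0.84 ± 0.0784 and the scavenger receptor Marco by 3.83 ± 0.341. Csf1r, the receptor for the growth factor Csf1, was at 1372, 1324 and 1371 CPM unstimulated and 1373, 1313 and 1471 CPM after LPS (log2 fold change 0.03, adjusted p = 0.737). The libraries of the 2 states overlapped.

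Several receptors for chemokines fell, among them receptors of ligands that rose. Of 19 chemoattractant and growth factor receptors, 6 were higher and 8 lower, 6 of the 8 by at least 2-fold. These shares were 31.6% and 42.1%, against 27.3% and 27.8% of all genes tested. With the line as a block 7 were higher. Ccr1, which binds Ccl3 and Ccl5, was at 28.1, 29.7 and 21.4 CPM unstimulated and 3.72, 2.66 and 2.35 CPM after LPS (log2 fold change -3.19, standard error 0.204, adjusted p = 9.36e-06). Ccr2, the receptor for Ccl2, went from 28.8, 37 and 31.3 to 6.05, 9.13 and 7.29 CPM (-2.11 ± 0.164). Cxcr4 went from 65.3, 108 and 112 to 33.4, 33.3 and 44.7 CPM (-1.36 ± 0.213), and Cx3cr1 from 18.2, 36.5 and 45.2 to 8.32, 17.8 and 20.1 CPM (log2 fold change -1.11, standard error 0.389, adjusted p = 0.0408). The call on Cx3cr1 was lost without unstimulated line 2 or 3 or LPS line 1 or 2 (adjusted p from 0.074 to 0.123), by DESeq2 (adjusted p = 0.0667), by limma-voom (adjusted p = 0.0545) and with robust dispersion (adjusted p = 0.123). In the other direction, the chemerin-binding receptor Ccrl2 rose from 53.3, 34.1 and 35.5 to 458, 473 and 565 CPM (3.61 ± 0.192), the complement receptors C3ar1 and C5ar1 by 2.06 ± 0.08 and 1.51 ± 0.0928, and Il4ra by 2.51 ± 0.121.

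Cell cycle genes were lower by modest amounts. Of 34 tested, 28 were lower (82.4%, against 27.8% of all genes tested) and 1 was higher (2.94%, against 27.3%), with a median of -0.64. By at least 2-fold, 7 were lower (20.6%, against 10.5%). With the line as a block 29 were lower, and without unstimulated lines 1 and 2 the median was -0.80. Ccnd1 (cyclin D1) was at 387, 417 and 486 CPM unstimulated and 66.2, 79.2 and 101 CPM after LPS (log2 fold change -2.39, standard error 0.163, adjusted p = 1.28e-05). The S-phase regulators E2f2 and Ccne1 had log2 fold changes of -1.89 ± 0.116 and -1.40 ± 0.105, and the mitotic genes Cenpf, Bub1b and Plk1 of -1.28 ± 0.179, -1.15 ± 0.165 and -1.09 ± 0.193. The member that rose was Cdkn1a, which encodes the cell cycle inhibitor p21, at 336, 336 and 331 CPM unstimulated and 944, 988 and 1106 CPM after LPS (log2 fold change 1.6, standard error 0.0793, adjusted p = 2.94e-06). Mki67, a general marker of cycling cells, was at 631, 752 and 604 CPM unstimulated and 549, 681 and 618 CPM after LPS (adjusted p = 0.462, and 0.0479 with upper-quartile normalization).

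Of 20 genes of cholesterol and lipid transport, 4 were higher (20%) and 6 lower (30%), near the 27.3% and 27.8% of all genes tested, with a median of -0.20, and 10 were lower with the line as a block. Insig1, which retains the sterol sensor in the endoplasmic reticulum, had a log2 fold change of -1.0 ± 0.0683, and Mylip, a ligase that degrades the LDL receptor, rose by 1.01 ± 0.153. Acat1, the mitochondrial thiolase that the study deleted in its other cells, lies on chromosome 9, 53580522 to 53610382, minus strand of GRCm38. It was at 108, 108 and 81.2 CPM unstimulated and 83.7, 93.9 and 64.4 CPM after LPS in WT cells, and each line was lower after LPS, with changes of -0.36, -0.21 and -0.34 on the log2 scale (log2 fold change -0.30, adjusted p = 0.151, 0.00571 with the line as a block, and 0.0314 with upper-quartile normalization). Of 22 lysosome and endocytosis genes, 6 were higher (27.3%, the share of all genes tested), 2 lower (9.09%, against 27.8%) and 14 not called. With the line as a block 3 were lower. Tfeb, a master regulator of lysosomal genes, was the one lower by at least 2-fold, at 17.6, 17 and 17.8 CPM unstimulated and 5.89, 4.67 and 4.01 CPM after LPS (log2 fold change -1.85, standard error 0.146, adjusted p = 2.59e-05).

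Among the falls with the smallest p were genes of development and signalling that were on no list. Lbh (chromosome 17, 72918305 to 72941947, plus strand), a transcriptional cofactor, was at 25.7, 25.8 and 26.3 CPM unstimulated and 2.33, 2.34 and 2.68 CPM after LPS (log2 fold change -3.40, standard error 0.0972, adjusted p = 2.76e-07). Hhex, a homeobox transcription factor, went from 48.5, 50.5 and 52.9 to 5, 6.58 and 5.94 CPM (-3.11 ± 0.113), Tifab, an inhibitor of TRAF6 signalling, from 43.9, 52.5 and 51.2 to 6.69, 7.61 and 7.42 CPM (-2.76 ± 0.1) and Tmem154 from 87.3, 82.5 and 92.9 to 17, 13.9 and 15.3 CPM (-2.51 ± 0.096). In these genes the 3 lines had nearly the same values in each state, which the choice by smallest p favours. Sgms2, a sphingomyelin synthase, had the counterpart among the rises, at 1.97, 2.6 and 2.18 CPM unstimulated and 156, 146 and 153 CPM after LPS (log2 fold change 6.08, standard error 0.117, adjusted p = 1.54e-07).

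The largest falls by size were of another kind. All 10 genes with the largest falls among those averaging 1 CPM or more were high in unstimulated lines 1 and 2 and low in unstimulated line 3 and in every LPS library. Gm10252 was at 127, 194 and 0.472 CPM unstimulated and 0.391, 0.259 and 0.223 CPM after LPS, and its log2 fold change of -8.57 (adjusted p = 0.00509) was -0.72 without unstimulated lines 1 and 2 (adjusted p = 0.16). Of the 10, Hdgfl3, Gm41396, Gm19719 and Gm10143 still passed the threshold without those libraries, but by limma-voom none of the 7 named here passed it (adjusted p from 0.0805 to 0.299). Grtp1 and Wdr38 had the same form, at 23.2, 32.1 and 0.268 and 40.7, 48.1 and 0.366 CPM in unstimulated cells. Of the 1695 genes lower by at least 2-fold, 178 (10.5%) were more than 4-fold higher in both unstimulated lines 1 and 2 than in line 3, and 175 of these 178 had exon bases opposite a gene on the other strand. Over all genes tested 1.33% had this form. Antisense genes made up 13.1% of the genes lower by at least 2-fold, 2.2% of those higher and 3.12% of all genes tested. Among genes with no exon base on the other strand, 998 were lower by at least 2-fold.

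**Figure D5:**
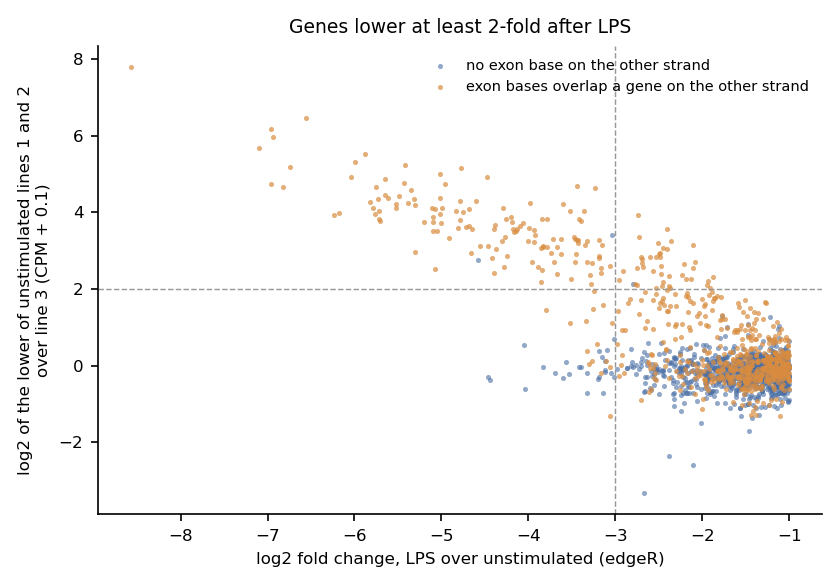
Each point is one of the 1695 genes lower by at least 2-fold after LPS. The x axis is the log2 fold change, and the y axis is the log2 of the lower of unstimulated lines 1 and 2 over unstimulated line 3, after 0.1 CPM was added. Most points left of the dashed line at 8-fold lie above the dashed line at 4-fold and have exon bases on the other strand (orange).

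The genes called higher held a larger share of the counts after LPS, a direction set by their choice in these same libraries, so only its size is informative. The 1639 genes higher by at least 2-fold held 6.61% to 7.19% of the counts of an unstimulated library and 21.5% to 23.1% after LPS. The 219 genes past 8-fold went from 0.442% to 0.469% of counts to 5.97% to 7.23%. The genes with the largest gain in share after Rsad2 were Tnfaip2, a TNF-induced gene, from 342, 275 and 259.9 to 4702, 4958 and 4837 CPM (4.05 ± 0.122), and Cxcl10. Actb, which encodes the cytoskeletal beta-actin and is often taken as a reference gene, was also among the 10 largest gains, at 1865, 2002 and 1941 CPM unstimulated and 4292, 4784 and 4246 CPM after LPS (log2 fold change 1.20, standard error 0.0767, adjusted p = 9.36e-06). Counts measure shares of the RNA sequenced, so a smaller amount of a gene's RNA and a larger amount of all other RNA cannot be told apart.

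Gene length differed with the size and the direction of the change. Among protein-coding genes tested, the median gene span was 23.3 kb, 26.7 kb for genes higher by at least 2-fold, 23.8 kb for those past 4-fold and 18.9 kb for those past 8-fold, with 9, 9, 8 and 7 exons. Genes lower by at least 2-fold had a median span of 20.3 kb, and those past 4-fold 14.3 kb with 5 exons. Restricted to genes with no exon base on the other strand, the span was 23.1 kb for genes higher past 4-fold, 18.7 kb for those past 8-fold and 11.9 kb for genes lower past 4-fold, against 22.9 kb for all of these genes.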

How the data were processed

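RNA-seq libraries of WT J774A.1 cells, 3 unstimulated and 3 LPS, were compared. Per the paper's methods, Trimmomatic was used for trimming, HISAT2 for alignment to GRCm38 and StringTie for quantification. The libraries were directional and paired-end. The counts the authors deposited are whole numbers, not normalized, with a table for each state, and whether the counting used strand is not given in the sources used here. The tables also hold the authors' log2 values per library (12 columns, not used) and their fold changes and p-values between genotypes (not used).

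The first entry of each gene was kept (59 and 57 repeated entries removed), and the tables of 17544 and 17874 genes were joined on the gene identifier. Of the 16699 joined genes, 16679 matched the GENCODE annotation of GRCm38. No symbol was given for 12 entries, which kept their identifier. The joined counts went through edgeR 4.0.16 (R 4.3.3) with filterByExpr, TMM, and the quasi-likelihood test, two-sided, with Benjamini-Hochberg adjustment. TMM factors were 1.05 to 1.14 in unstimulated and 0.897 to 0.914 in LPS libraries. The biological coefficient of variation (edgeR's common value) was 0.208 across unstimulated and 0.125 across LPS libraries. Pairs of libraries of a group differed by a chi-square per degree of freedom of 39.4 to 296, so none is a copy. Given these totals, the spread between lines limits precision for all but the lowest genes, and no counting intervals were computed. p-values measure the spread between the clones of 1 cell line.

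The deviations from the group mean of libraries with the same replicate number correlated at 0.439, 0.303 and 0.328 over 11954 genes, and those of different numbers at -0.308 to -0.0119, so the numbers were taken to pair the samples. The fit with this block is given beside results whose call it changes.

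Genes named are members of 17 lists, the 10 largest changes and 5 smallest p in each direction among called genes with a mean of at least 1 CPM, the 10 genes with the largest share of counts after LPS, and the highest genes of a single table, 10 for LPS and 5 for unstimulated cells. Which of these the text ranks by gain in share of counts was chosen after values were seen. Some genes that the rule takes in are not reported here. The members, lists and rules were chosen with earlier results of these data known. The CPM of genes in 1 table, the levels of cell type markers and shares of counts use the total of the library's own table, without TMM. Motif matches are counts of letters in RefSeq promoters (GRCm38.p6), matched by symbol. The test was checked on simulated counts in which few genes changed and the lines did not differ. That check cannot speak to the differences between lines or to the many changed genes of these data.

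Alternatives were DESeq2 1.42.0, limma-voom (limma 3.58.1), RLE and upper-quartile normalization, no filter, a minimum of 10 counts in all libraries, robust dispersion, the replicate block, all 12 libraries in a single fit, each library left out in turn, and unstimulated lines 1 and 2 left out, where the lone unstimulated library was assumed to vary like the LPS libraries. Restricting the fit to genes with no exon base on the other strand was added after the data were seen.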

Additional observations from a re-analysis of the deposited data

How the results depend on the processing

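The counts of called genes stayed within 1.5 times of those reported under DESeq2, limma-voom, both other normalizations, both filters, robust dispersion, the replicate block and the fit of all 12 libraries. With the replicate block, 4667 genes were higher and 4897 lower, and the 7 named genes whose call it changed, all of them to a call, are given with it above, as are the lists whose counts it moved. With each library left out in turn, 4035 to 4472 genes were higher and 3420 to 4163 lower, and by at least 2-fold 1638 to 1754 were higher and 1491 to 1750 lower. Without unstimulated lines 1 and 2, 3755 were higher and 3515 lower. Genes with no exon base on the other strand (11364 tested) gave 2912 lower and, by at least 2-fold, 998 lower. The same genes without unstimulated lines 1 and 2 gave 2496 higher, 2362 lower and, by at least 2-fold, 1029 lower, and fewer genes were tested in both. That fit left out Cxcl10, Cxcl11 and Cxcl16, the 3 CXC chemokines called higher, because they have exon bases on the other strand. The median of the CXC chemokines that remained in it was -0.0387. Of the 125 called genes named in the text, 107 kept their call and direction in every alternative that tested them. Among the 11 that were not called, the direction turned for Csf1r with upper-quartile normalization (-0.16), for Egr1 without LPS line 1 (-0.0113, against 2.24 without LPS line 2) and for Mki67 without unstimulated line 2 (0.0144), without unstimulated lines 1 and 2 (0.0319) and without those and the genes on the other strand (0.0241); the cause was not tested.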

Other observations

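Genes of the translation machinery and of the mitochondrial genome were on none of the lists. The 94 cytosolic ribosomal protein genes had a median log2 fold change of -0.07 after LPS, with 7 higher and 12 lower and 1 changed by at least 2-fold, so they stood close to the median of all genes. The 13 protein genes of the mitochondrial genome had a median of -0.81, with 3 called lower and none higher, but their summed level was 8.726e+04 CPM in unstimulated line 1 against 2.972e+04 and 2.441e+04 CPM in lines 2 and 3 and 2.421e+04 to 3.234e+04 CPM after LPS. Without unstimulated lines 1 and 2 their median was 0.21.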
